A study of Mus musculus with 29 samples.

Results

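Acute phase proteins are plasma proteins whose synthesis in the liver changes within hours of infection or injury. The transcripts described here are those of 10 such genes, Saa1, Saa2, Saa3, Crp, Orm1, Orm2, Orm3, Hp, Hpx and Lcn2, chosen by the gene name that the array files give to each probe. Each gene had 1 probe, so the members are 10 of the 31693 genes on the array, measured by 10 of its 39429 probes, and all 10 passed the filter on dim probes that left 23981. The samples were livers of 29 male C57BL/6N mice, 1 array each, aged 3 months when a 7-week feeding period began. The base diet of all mice was rich in fat from corn oil (cHF). It was given alone to 7 mice (cHF), with a low dose of rosiglitazone to 6 (cHF+R), with omega-3 phospholipids to 8 (cHF+PC) and with both to 8 (cHF+PC+R). Rosiglitazone, an insulin sensitiser, activates the nuclear receptor PPAR-gamma. The phospholipids were rich in phosphatidylcholine with EPA and DHA, fatty acids of marine origin, and took the place of about 7% of the lipid in the diet. No group here ate chow through the experiment. The extracts were of whole liver, in which fewer cells of a type and less RNA per cell cannot be told apart.

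In an acute phase response, cytokines from macrophages, above all interleukin-6 and interleukin-1, reach the hepatocyte and act there through STAT3, NF-kB and the C/EBP family of transcription factors. Transcripts of positive acute phase proteins then rise, while those of negative ones, such as albumin and transthyretin, fall. Serum amyloid A, serum amyloid P and the orosomucoids are classical positive reactants of the mouse, in which C-reactive protein reacts little.

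All 10 probes were well above background in the liver channel (Cy5) on 29 of 29 arrays, and none was saturated (0 arrays). For Hp and Hpx the Cy5 value came on 29 arrays from the low-gain scan, scaled up, and for Saa1 on 7 and Saa2 on 2. Each value below is the log2 ratio of a liver to the pooled reference of all samples, and a change subtracts one group's ratio from another's. No dyes were swapped, and 0 need not be the exact level of the pool for each probe. The means of all 4 groups were above 0 for Hp and below 0 for Orm2. Precision is limited by how many arrays there were. Over 43020 spots that were no controls, the share well above background was between 55.0% and 62.5%, apart from cHF replicate 4 with 80.8%. Each of the 8 slides carried no more than 1 array per group, so changes were also taken within slides. The hepatocyte markers Cps1, Serpinc1, Ass1 and F2 were well above background on 29 arrays each.

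Serum amyloid A and the orosomucoids are families of related genes that lie near each other, so the letters of their probes are given first, to show what each measured. By the coordinates in the files (build mm9), the probes of Saa1 (chr7:53996070-53996129, minus strand), Saa2 (chr7:54009622-54009681, plus strand) and Saa3 (chr7:53970389-53970448, minus strand) lie in 1 cluster on chromosome 7. Those of Orm1 (chr4:63006483-63007090), Orm3 (chr4:63018910-63020393) and Orm2 (chr4:63024979-63025038) lie in that order on the plus strand of chromosome 4. Every probe has 60 bases. The Orm1 and Orm3 probes take 608 and 1484 bases of the genome, so each joins 2 exons. The following coding stretches are the probes of the orosomucoids and of Saa3 in full and the 56 bases of the Saa1 probe up to its stop codon.
Saa1 probe: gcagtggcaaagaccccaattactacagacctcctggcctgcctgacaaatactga
Saa3 probe: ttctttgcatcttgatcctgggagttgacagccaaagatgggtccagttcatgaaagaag
Orm1 probe: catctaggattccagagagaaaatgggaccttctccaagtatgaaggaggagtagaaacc
Orm2 probe: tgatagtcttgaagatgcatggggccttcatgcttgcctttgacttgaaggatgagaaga
Orm3 probe: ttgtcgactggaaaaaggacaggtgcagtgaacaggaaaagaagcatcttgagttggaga
Whether a probe also binds the transcript of its neighbour was not tested. The other members were read at chr1:174629343-174629402 (Crp, plus strand), chr8:112099045-112099104 (Hp, minus), chr7:112740304-112740363 (Hpx, minus) and chr2:32240199-32240258 (Lcn2, minus).

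The upstream sequences of 2 pairs of neighbours, Saa1 with Saa2 and Orm2 with Orm3, are shown. The transcripts of the first pair varied together across the livers, and those of the second missed the test of it. Saa3, whose transcript also varied with those of Saa1 and Saa2, was left out of this comparison. Whether likeness of upstream sequence bears on likeness of levels was not tested. The windows are the 250 bases before the annotated start, from RefSeq (GRCm38.p6), which held 8 of the 10 members. Capitals mark matches to TTGCNNAA, read on both strands, the letters bound by C/EBP factors.
Saa1 upstream (chr7:46742981-46743230, minus strand): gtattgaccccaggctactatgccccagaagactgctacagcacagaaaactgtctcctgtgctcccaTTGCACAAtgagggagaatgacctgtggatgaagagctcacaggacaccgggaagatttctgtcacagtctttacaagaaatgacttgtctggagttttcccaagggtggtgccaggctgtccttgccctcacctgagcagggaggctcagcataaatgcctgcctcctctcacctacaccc
Saa2 upstream (chr7:46751583-46751832, plus strand): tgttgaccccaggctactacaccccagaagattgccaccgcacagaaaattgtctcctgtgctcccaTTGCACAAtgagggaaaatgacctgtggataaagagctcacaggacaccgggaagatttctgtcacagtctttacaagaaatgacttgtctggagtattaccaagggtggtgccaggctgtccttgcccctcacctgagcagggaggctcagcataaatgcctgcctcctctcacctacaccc
Orm2 upstream (chr4:63362199-63362448, plus strand): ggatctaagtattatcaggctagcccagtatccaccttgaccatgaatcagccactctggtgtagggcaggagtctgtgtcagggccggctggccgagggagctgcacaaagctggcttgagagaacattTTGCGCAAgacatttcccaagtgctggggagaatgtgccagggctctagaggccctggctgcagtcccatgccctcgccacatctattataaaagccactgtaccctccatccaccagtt
Orm3 upstream (chr4:63355908-63356157, plus strand): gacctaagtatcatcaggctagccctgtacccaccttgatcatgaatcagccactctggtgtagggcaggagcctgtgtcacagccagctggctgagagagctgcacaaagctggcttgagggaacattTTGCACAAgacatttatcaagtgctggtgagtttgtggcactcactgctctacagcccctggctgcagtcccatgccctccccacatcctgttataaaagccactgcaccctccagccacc
The Saa1 and Saa2 windows are 95.6% identical over 249 aligned bases, with 11 differing, and those of Orm2 and Orm3 are 89.0% identical over 245, with 27 differing. Each of the 4 windows holds 1 match, TTGCACAA in Saa1, Saa2 and Orm3 and TTGCGCAA in Orm2. Saa3, Hpx and Lcn2 hold 1 each as well, so 7 of the 8 windows match. Of 32851 such windows in the table, 9.56% hold the letters. TTCNNNGAA, the letters bound by STAT factors, was found in 0 of the 8 windows and in 7.02% of all, and the degenerate NF-kB motif in 0 of 8 and in 7.25% of all.

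No member passed the threshold in any comparison of diets. In 60 tests (10 members in 5 comparisons and in the interaction), limma with Benjamini-Hochberg adjustment over 23981 probes called 0 at an adjusted p of 0.05, and 9 had an unadjusted p under 0.05. Over all probes, the same fit called 3.83% for cHF+PC against cHF, 2.98% for cHF+R against cHF, 9.02% for cHF+PC+R against cHF, 6.69% for cHF+PC+R against cHF+R, 0.113% for cHF+PC+R against cHF+PC and 0% for the interaction. Against shares of this size, 0 of 10 members is near the background. The unadjusted counts were 1 for cHF+PC against cHF, where 18.2% of all probes were under 0.05, 1 for cHF+R against cHF (14.7% of all), 2 for cHF+PC+R against cHF (24.0%), 4 for cHF+PC+R against cHF+R (21.9%), 0 for cHF+PC+R against cHF+PC (8.35%) and 1 for the interaction (6.65%). In no comparison of 2 groups did a member's values in the groups stand fully apart, which 1.36%, 2.01%, 2.31%, 1.56% and 0.0959% of all probes did in the comparisons in the order above. The median change of the 10 was 0.31 for cHF+R against cHF (0.014 over all probes), -0.12 for cHF+PC+R against cHF+R (-0.0051 over all), 0.014 for cHF+PC against cHF, -0.0016 for cHF+PC+R against cHF and 0.018 for cHF+PC+R against cHF+PC. The 95% intervals lay inside a doubling or halving (log2 change of 1 either way) for all 10 members in cHF+PC against cHF, in cHF+PC+R against cHF and in cHF+PC+R against cHF+PC, for 9 in cHF+R against cHF and for 8 in cHF+PC+R against cHF+R.

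**Figure D1:**
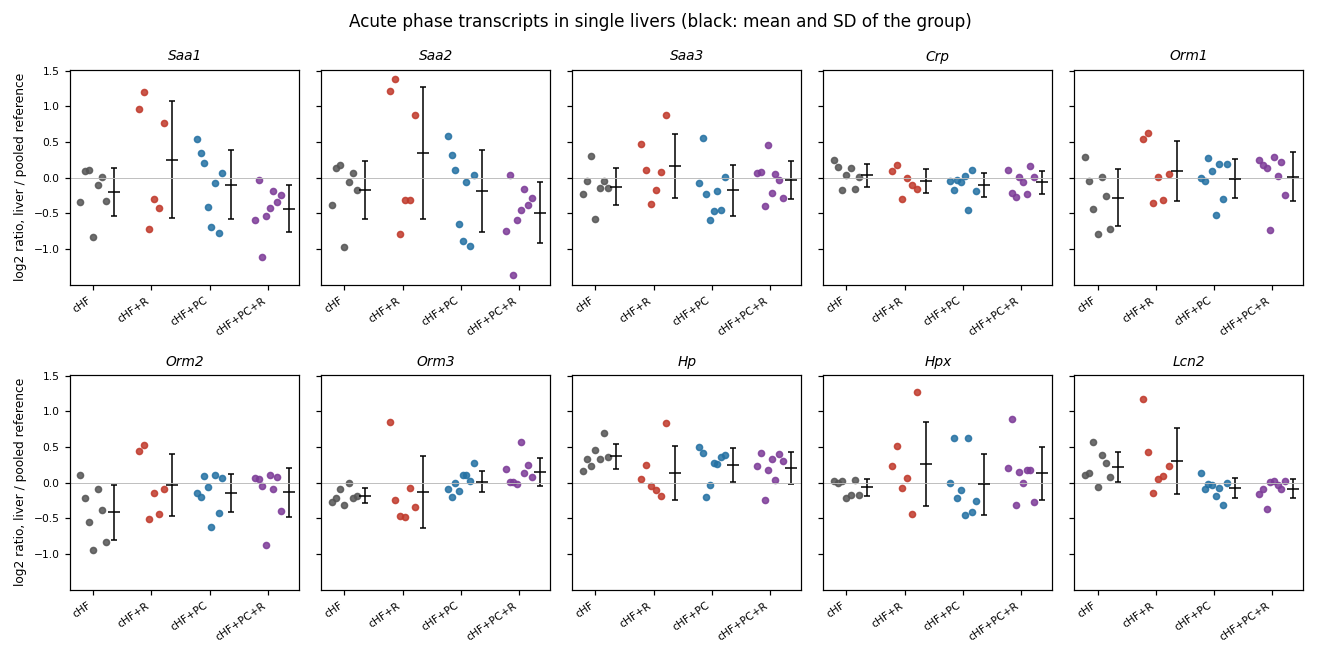
Log2 ratio of each liver to the pooled reference (y axis) for the 10 acute phase transcripts in the 4 diet groups (x axis). Each point is 1 liver, and the black mark and bar are the group's mean and SD. The groups overlap in every panel, and the cHF+R points of Saa1 and Saa2 split into 3 high and 3 low livers.

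Saa1 and Saa2 encode the serum amyloid A proteins that hepatocytes release bound to high-density lipoprotein. In the 6 cHF+R livers Saa1 ranged from -0.72 to 1.20 with a median of 0.23, and in the 7 cHF livers from -0.83 to 0.10 with a median of -0.11. In cHF+PC it ranged from -0.78 to 0.54 with a median of -0.0063, and in cHF+PC+R from -1.12 to -0.034 with a median of -0.38. The 3 highest of all 29 livers for Saa1 were cHF+R replicates 2, 1 and 6 (1.20, 0.96 and 0.76), and the other 3 livers of that group were at -0.29, -0.42 and -0.72, below most cHF livers. Saa2 had the same 3 highest livers, at 1.38, 1.21 and 0.88. From the lowest to the highest of the 29 livers, Saa2 differed 6.67-fold and Saa1 5.00-fold. Saa1 was 0.45 ± 0.263 (SE) higher in cHF+R than in cHF (95% interval from -0.09 to 0.99, adjusted p = 0.45), and Saa2 0.52 ± 0.308 (-0.11 to 1.15, adjusted p = 0.462), each in 4 of 5 slides. Adding phospholipids to rosiglitazone gave -0.68 ± 0.256 for Saa1 (-1.20 to -0.16, adjusted p = 0.104, lower in 5 of 6 slides) and -0.84 ± 0.299 for Saa2 (-1.45 to -0.22, adjusted p = 0.0881, lower in 6 of 6 slides). Neither passed the threshold, and both calls turned on 1 array or 1 setting. Without cHF+R replicate 3, the lowest of its group, Saa1 came to -0.88 (adjusted p = 0.0351) and Saa2 to -1.06 (adjusted p = 0.029), and Saa2 also passed with the slide as a fixed block (-0.85, adjusted p = 0.0411). Against cHF alone, cHF+PC gave 0.10 ± 0.245 for Saa1 and cHF+PC+R -0.23 ± 0.245, with intervals from -0.40 to 0.60 and from -0.73 to 0.27.

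Saa3, which macrophages and adipocytes make as well as hepatocytes, varied less. Its highest liver was cHF+R replicate 6 (0.87), followed by cHF+PC replicate 2 (0.55) and cHF+R replicate 1 (0.47). Its medians were -0.14 in cHF, 0.090 in cHF+R, -0.21 in cHF+PC and 0.0064 in cHF+PC+R. The change in cHF+R against cHF was 0.29 ± 0.175 (adjusted p = 0.467), and in cHF+PC+R against cHF+R -0.20 ± 0.17 (adjusted p = 0.532). The probe's groups overlapped throughout.

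Crp encodes C-reactive protein, a pentraxin that binds phosphocholine on bacteria and damaged cells. Its 29 values lay between -0.46 and 0.24, the narrowest range of the members at 1.62-fold. The medians of the groups were 0.030 in cHF, -0.059 in cHF+R, -0.055 in cHF+PC and -0.028 in cHF+PC+R. All 5 changes were between -0.13 and 0.040, and the interval furthest from 0, for cHF+PC against cHF, ran from -0.30 to 0.034.

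Orm1, Orm2 and Orm3 encode orosomucoids (alpha-1-acid glycoproteins), lipocalins of plasma that carry drugs and other small hydrophobic molecules. Orm1 ranged from -0.79 to 0.29 in cHF (median -0.26), from -0.36 to 0.63 in cHF+R (median 0.029), from -0.52 to 0.28 in cHF+PC (median 0.049) and from -0.74 to 0.29 in cHF+PC+R (median 0.16). Its highest livers were again cHF+R replicates 2 and 1, and its lowest were cHF replicate 4 and cHF+PC+R replicate 4. The change in cHF+R against cHF was 0.37 ± 0.186 for Orm1 (-0.0064 to 0.75, adjusted p = 0.35) and 0.38 ± 0.185 for Orm2 (0.0043 to 0.76, adjusted p = 0.333), higher in 5 of 5 slides for both. The same transcripts were 0.27 ± 0.173 and 0.27 ± 0.172 higher in cHF+PC than in cHF, and 0.29 ± 0.173 and 0.28 ± 0.172 higher in cHF+PC+R, with adjusted p from 0.308 to 0.437. All 3 supplemented groups thus had higher means than cHF, and none of these differences passed the threshold.

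The Orm3 probe was dim, with Cy5 intensities from 98.5 (cHF+R replicate 3) to 811.5 (cHF+PC replicate 8). Those of Orm1 ran from 4262 to 13678.4. Orm3 had another order of groups. Its values lay between -0.31 and -0.0088 in cHF (median -0.21), between -0.48 and 0.85 in cHF+R (median -0.29), between -0.19 and 0.28 in cHF+PC (median 0.013) and between -0.024 and 0.57 in cHF+PC+R (median 0.11). In cHF+R, 5 livers lay between -0.48 and -0.08 and replicate 1 stood at 0.85, the highest of all 29. Orm3 was 0.34 ± 0.129 higher in cHF+PC+R than in cHF (0.074 to 0.60, adjusted p = 0.0979), in 7 of 7 slides, and 0.20 ± 0.129 higher in cHF+PC (adjusted p = 0.434), also in 7 of 7. Against cHF+R the change in cHF+PC+R was 0.28 ± 0.134 (adjusted p = 0.215). Without cHF+R replicate 1 both passed, at 0.34 against cHF (adjusted p = 0.00612), where the estimate stayed and the shared spread became smaller, and at 0.48 against cHF+R (adjusted p = 0.00121). The change against cHF also passed with array weights (0.36, adjusted p = 0.0434) and with a fit of the 2 groups alone (adjusted p = 0.0104). Its size depended on how background was handled. It was 0.42 with no background subtraction (adjusted p = 0.146) and 0.70 with signals processed by Agilent Feature Extraction (adjusted p = 0.134). For cHF+PC against cHF the same settings gave 0.41 and 0.62 (adjusted p = 0.181 and 0.214).

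Hp and Hpx encode haptoglobin and haemopexin, which bind the haemoglobin and haem released from broken red cells. Hp ranged from 0.16 to 0.70 in cHF (median 0.34), from -0.18 to 0.84 in cHF+R (median 0.0024), from -0.20 to 0.51 in cHF+PC (median 0.31) and from -0.25 to 0.41 in cHF+PC+R (median 0.27). Its highest mean was in cHF and its lowest in cHF+R, yet cHF+R replicate 6 was the highest liver of all. The change in cHF+R against cHF was -0.24 ± 0.134 (-0.51 to 0.039, adjusted p = 0.432). Hpx in cHF stayed within -0.22 and 0.043, while cHF+R ran from -0.44 to 1.27, cHF+PC from -0.45 to 0.63 and cHF+PC+R from -0.30 to 0.90. Its changes against cHF were 0.33 ± 0.209 in cHF+R (-0.10 to 0.76, adjusted p = 0.496), 0.043 ± 0.194 in cHF+PC and 0.20 ± 0.194 in cHF+PC+R.

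Lcn2 encodes lipocalin-2, which withholds iron from bacteria by binding their siderophores and is made by hepatocytes in inflammation and stored in neutrophil granules. Its values were between -0.054 and 0.57 in cHF (median 0.14), between -0.14 and 1.17 in cHF+R (median 0.17), between -0.32 and 0.14 in cHF+PC (median -0.056) and between -0.37 and 0.030 in cHF+PC+R (median -0.054). Livers on phospholipids were thus mostly below 0 and those without mostly above it, with overlap. The change in cHF+PC+R against cHF+R was -0.39 ± 0.129 (-0.65 to -0.13, adjusted p = 0.0635), lower in 6 of 6 slides, the smallest adjusted p among the 60 tests of members. It was -0.30 ± 0.124 in cHF+PC+R against cHF (adjusted p = 0.127, lower in 6 of 7 slides) and -0.29 ± 0.124 in cHF+PC against cHF (adjusted p = 0.202, lower in 6 of 7). These comparisons share their control livers. Rosiglitazone alone gave 0.09 ± 0.133 (-0.18 to 0.36, adjusted p = 0.812). Lcn2 was called against cHF+R without cHF+R replicate 3 (-0.48, adjusted p = 0.0243) and with no background subtraction (-0.41, adjusted p = 0.0461). Without cHF+R replicate 1, at 1.17 the highest liver, it was called against cHF in cHF+PC+R (-0.30, adjusted p = 0.0235) and in cHF+PC (-0.29, adjusted p = 0.0493), and a fit of the 2 groups alone called it in cHF+PC+R (adjusted p = 0.0317).

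**Figure D2:**
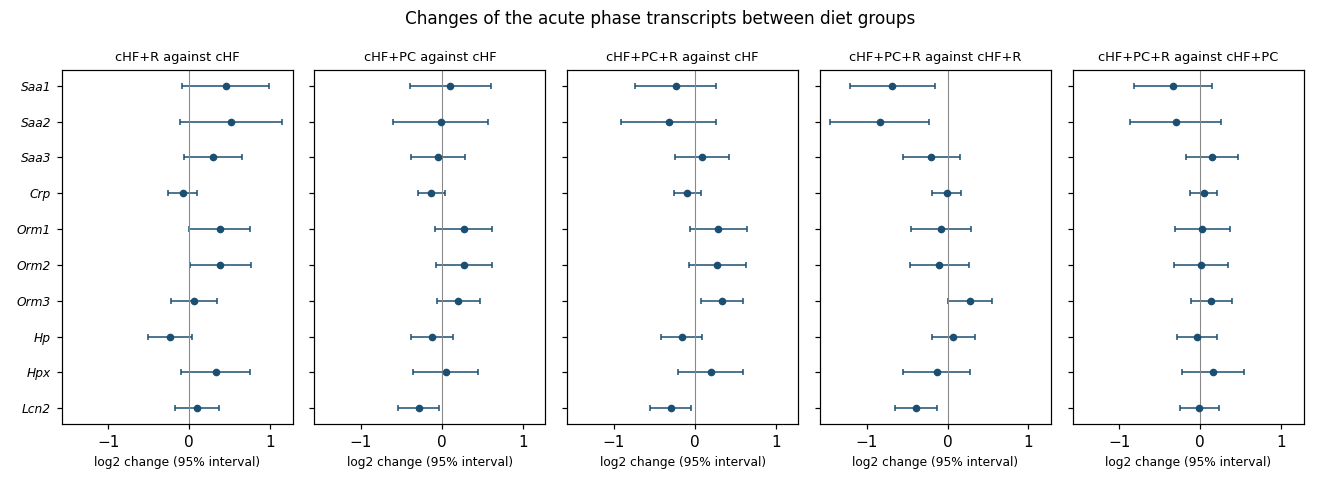
Log2 change of each acute phase transcript (rows) in 5 comparisons of diet groups (panels), with the 95% interval of the fit as bars. Most intervals cross 0. The intervals furthest from it are those of Saa1, Saa2 and Lcn2 for cHF+PC+R against cHF+R, at -0.68, -0.84 and -0.39.

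The interaction asks whether the change with phospholipids differed between livers with and without rosiglitazone. It was -0.78 ± 0.354 for Saa1 (-1.51 to -0.060, unadjusted p = 0.0348 in the limma fit, adjusted p = 0.717), with a negative value in 5 of 5 slides that held all 4 groups, and -0.82 ± 0.414 for Saa2 (-1.67 to 0.027, adjusted p = 0.765), also negative in 5 of 5. For the other 8 members it lay between -0.37 and 0.20, with adjusted p from 0.833 to 0.968. No probe of the array was called for the interaction.

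Within groups the livers differed widely. The pooled SD within groups was 0.59 for Saa2, 0.51 for Saa1, 0.40 for Hpx and 0.25 for Lcn2, on the log2 scale. It exceeded that of between 93.6% and 99.4% of the 23981 probes for 9 members, and of 81.2% for Crp. The cHF+R group, the smallest with 6 livers, had the largest SD for 10 of 10 members, while it had the largest for 30.2% of all probes. For Crp it was all but tied with cHF+PC (0.1718 against 0.1716), and for Orm1 it was close to cHF (0.417 against 0.396). The ratio of the SD in cHF+R to that in cHF was 5.15 for Hpx, 4.84 for Orm3, 2.47 for Saa1, 2.30 for Saa2, 2.22 for Lcn2, 2.16 for Hp and 1.71 for Saa3, and between 1.05 and 1.13 for Crp, Orm1 and Orm2. With 1 cHF+R array left out, the count of members with their largest SD in that group was between 7 and 10. It was 8 without replicate 1, 7 without replicate 2, 8 without replicate 3 and 7 without replicate 6, when Saa3, Hp and Hpx left it. For 9 of 10 members the highest of the 29 livers was a cHF+R liver, which held for 29% of all probes. These members moved together, so they are not 10 separate observations. The high livers also differed by member: replicates 1 and 2 were the highest for Orm1 and Orm2, replicate 1 for Orm3 and Lcn2, and replicate 6 for Saa3, Hp and Hpx.

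**Figure D3:**
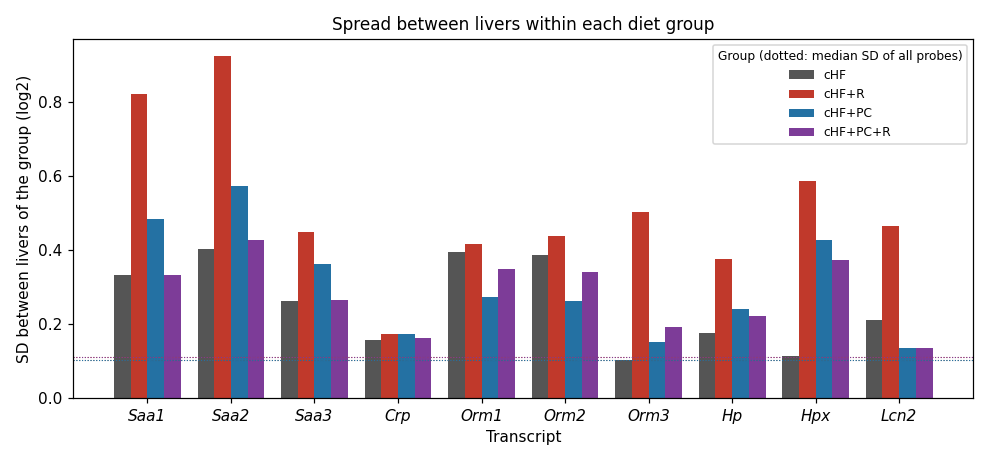
SD between the livers of each diet group (y axis, log2 scale) for the 10 acute phase transcripts (x axis). Bars start at 0, and dotted lines give each group's median SD over all probes. The cHF+R bar is the tallest for each transcript, from 0.17 for Crp, where it is all but tied with cHF+PC, to 0.92 for Saa2.

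Across the 29 livers, after each group's mean was subtracted, the members formed sets that varied together. All 45 pairs were tested by permutation (100000 draws, two-sided), with Benjamini-Hochberg adjustment over the 45. For Pearson's r, 15 pairs passed, all positive, and 9 of them also by Spearman's rho. Saa1 and Saa2 had r = 0.994 and rho = 0.990 (adjusted permutation p = 0.000113 and 0.000225), with r between 0.982 and 0.997 in every group and 0.992 without the 2 livers furthest from the median of Saa1. Orm1 and Orm2 had r = 0.996 and rho = 0.981 with the same adjusted p. The likeness of the Orm1 and Orm2 transcripts was not measured here, and binding of a probe to the other transcript of its pair was not tested. Orm3 had r = 0.362 with Orm1 and r = 0.394 with Orm2, and both missed the threshold (adjusted permutation p = 0.173 and 0.135). The Orm2 and Orm3 upstream windows are 89.0% identical, and a link of that figure to these correlations was not tested.

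**Figure D4:**
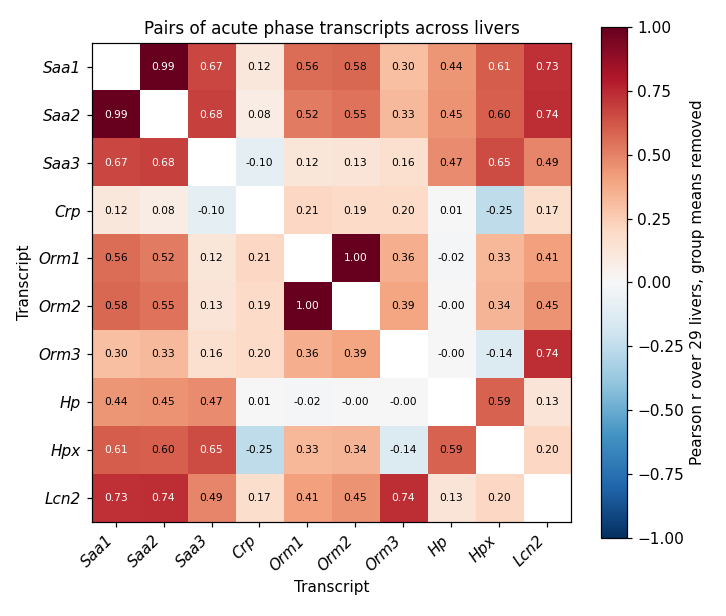
Pearson's r (colour and number) between each pair of acute phase transcripts over 29 livers, after group means were subtracted. Saa1 with Saa2 and Orm1 with Orm2 are near 1, and Crp lies between -0.25 and 0.21 with all members. The pairs among Saa1, Saa2, Saa3, Hpx and Lcn2 are positive, but Hpx with Lcn2 is only 0.20.

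Lcn2 followed Saa1 with r = 0.731 and rho = 0.719 (adjusted permutation p = 0.000113 and 0.00063). The value was 0.712 without the 2 furthest livers, 0.813 with slide means removed as well, and between 0.740 and 0.833 within each of the 4 groups. Saa3 followed Saa1 with r = 0.666 (rho = 0.722, 0.535 with slides removed), and Hpx followed it with r = 0.606 (rho = 0.640, 0.356 with slides removed). Hpx and Saa3 had r = 0.653, which came to 0.449 without the 2 furthest livers. Orm1 and Saa1 had r = 0.558 (adjusted permutation p = 0.0181), but rho = 0.445 missed the threshold (adjusted permutation p = 0.0832), and within groups r ran from 0.011 in cHF+PC+R to 0.919 in cHF+R. Orm3 and Lcn2 had r = 0.736 and rho = 0.433. Without the 2 furthest livers r was 0.431, and with slide means removed it was 0.810. Within groups r was 0.822 in cHF, 0.927 in cHF+R, -0.148 in cHF+PC and 0.329 in cHF+PC+R, so the relation differed by group. Hp and Hpx had r = 0.588, 0.370 without the furthest 2, and -0.08 in cHF against 0.971 in cHF+R. The highest r between Crp and another member was 0.208, with Orm1.

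The transcripts outside the members that were most like them, by Pearson's r over the same 29 livers and 22525 probes, are given as a description. For Saa1 they were Dubr (0.695), Gm7721 (0.675), Slc41a2 (0.667), Itih4 (0.665), itself an acute phase protein of the inter-alpha-trypsin inhibitor family, and Esr1 (0.664). Saa2 and Lcn2 ranked above all of them, in places 1 and 2. For Hp, Itih4 (0.687) and Vtn (0.682), the plasma protein vitronectin, were among the 5, after 6330407A03Rik (0.739), AW011738 (0.689) and Tmem176b (0.688). For Orm1 the first was Cenpq (0.734), a kinetochore protein, followed by Gm3947, Gm2531, Gm6981 and an unnamed transcript. For Lcn2 they were 3110009E18Rik (0.810), Fmn2, LOC100046877, Poglut3 and Cd22.

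Of 22 other genes listed as positive acute phase proteins, all measured, a few did pass the threshold, and they moved in different directions. The list also holds Saa4, which is constitutive. Apcs encodes serum amyloid P component, a pentraxin like C-reactive protein and a main acute phase reactant of the mouse. Its values were between -0.44 and -0.13 in cHF (median -0.29), between 0.48 and 2.20 in cHF+R (median 0.58), between -0.97 and -0.39 in cHF+PC (median -0.76) and between -0.58 and 0.13 in cHF+PC+R (median -0.49). All 6 cHF+R livers were above all livers of the other groups. Apcs rose by 1.15 ± 0.186 in cHF+R against cHF (adjusted p = 0.000348, 5 of 5 slides) and fell by 1.19 ± 0.181 in cHF+PC+R against cHF+R (adjusted p = 0.000111, 6 of 6 slides). Replicate 1 of cHF+R stood at 2.20, and without it the rise was 0.88 (adjusted p = 3.44e-05). In the 3 livers with the highest Saa1 in that group, replicates 2, 1 and 6, Apcs was 0.48, 2.20 and 0.62, and in replicates 3, 4 and 5 it was 0.54, 0.52 and 0.72. The Apcs value in cHF+PC against cHF was -0.42 ± 0.173 (adjusted p = 0.184), and the interaction was -0.77 ± 0.251 (adjusted p = 0.593). With arrays also scaled to each other after loess, the calls of Apcs were lost (adjusted p = 0.151 and 0.115), as were those of all genes named below. Those below were also lost with median centring in place of loess, apart from Cfd in cHF+R against cHF.

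Saa4, the constitutive serum amyloid A, which responds little to inflammation, fell by 0.42 ± 0.0839 in cHF+R against cHF (adjusted p = 0.00297) and rose by 0.41 ± 0.0815 in cHF+PC+R against cHF+R (adjusted p = 0.00228). Its cHF+R livers (-0.70 to -0.28) lay below all cHF livers (-0.21 to 0.11). Serpina3m, an antichymotrypsin-like serpin, fell by 0.50 ± 0.121 in cHF+R (adjusted p = 0.0182). Without cHF+R replicate 1, 3 or 5 that call was lost. In cHF+R, 1 of the 22 thus rose and 2 fell, the constitutive Saa4 among the 2, where 2.98% of all probes passed in either direction. Lbp, the lipopolysaccharide-binding protein, rose with phospholipids: by 0.29 ± 0.0691 in cHF+PC (adjusted p = 0.0145), by 0.41 ± 0.0691 in cHF+PC+R against cHF (adjusted p = 0.000358) and by 0.31 ± 0.0721 in cHF+PC+R against cHF+R (adjusted p = 0.00874), in 7 of 7, 7 of 7 and 6 of 6 slides. In cHF+PC it was the 1 of 22 that passed (3.83% of all probes). C3, the central complement component, rose in cHF+PC+R by 0.59 ± 0.157 against cHF (adjusted p = 0.0175), where Lbp and C3 were the 2 of 22 that passed (9.02% of all probes), and by 0.68 ± 0.164 against cHF+R (adjusted p = 0.011). In cHF+PC+R against cHF+R, 4 of the 22 rose, Saa4 among them, and 1 fell, where 6.69% of all probes passed. The median change of the 22 was 0.020 in cHF+R against cHF, 0.13 in cHF+PC against cHF and 0.10 in cHF+PC+R against cHF, where the medians of all probes were 0.014, 0.0024 and 0.012. In cHF+PC+R against cHF+PC 0 passed in limma, and the smallest p was that of Saa4 (-0.23 ± 0.0754, adjusted p = 0.314).

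**Figure D5:**
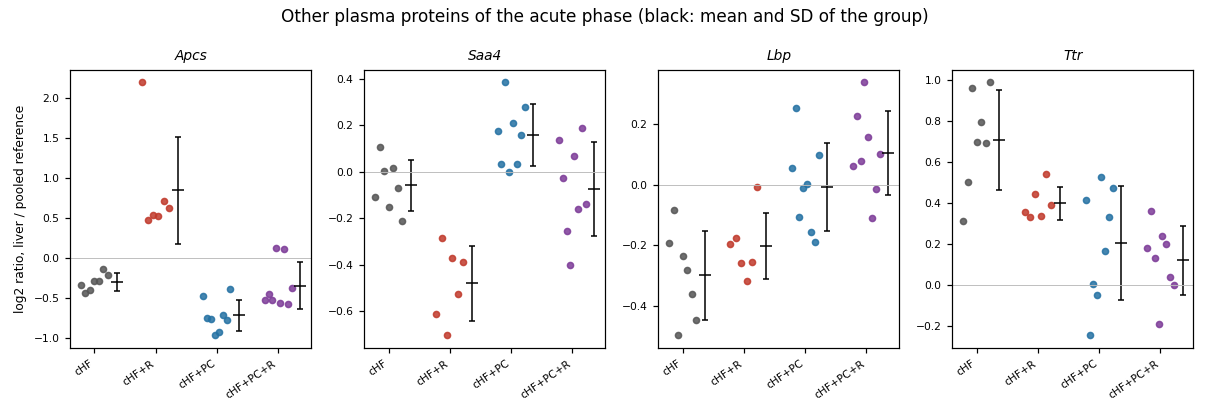
Log2 ratio of each liver to the pooled reference (y axes, which differ between panels) for Apcs, Saa4, Lbp and Ttr in the 4 diet groups (x axis). Each point is 1 liver, and the black mark and bar are the mean and SD. The 6 cHF+R livers of Apcs sit between 0.48 and 2.20, above all others, and those of Saa4 have the lowest median.

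Of 7 negative acute phase proteins, Ttr, the transthyretin that carries thyroid hormone and retinol-binding protein, fell by 0.50 ± 0.104 in cHF+PC against cHF (adjusted p = 0.00547) and fell by 0.59 ± 0.104 in cHF+PC+R against cHF (adjusted p = 0.00054). Its medians were 0.70 in cHF, 0.37 in cHF+R, 0.25 in cHF+PC and 0.16 in cHF+PC+R, and the groups overlapped. Serpina6, corticosteroid-binding globulin, rose by 0.47 ± 0.104 in cHF+PC+R (adjusted p = 0.00471). Against cHF, the list thus had 0 higher and 1 lower in cHF+PC (3.83% of all probes passed) and 1 of each in cHF+PC+R (9.02% of all probes). It had 0 in the other comparisons by limma. The smallest p there were those of Ttr in cHF+R against cHF (-0.31 ± 0.112, adjusted p = 0.153), Ahsg in cHF+PC+R against cHF+R (0.45 ± 0.152, adjusted p = 0.0701), Trf in cHF+PC+R against cHF+PC (0.17 ± 0.121, adjusted p = 0.73) and Alb in the interaction (0.31 ± 0.132, adjusted p = 0.711). Over the 42 tests of the list, 12 had an unadjusted p under 0.05, a level that 6.65% to 24.0% of all probes met, by comparison. Of these, 5 were in cHF+PC+R against cHF+R, where 21.9% of all probes met it. They were Alb, Rbp4, Serpina6 and Ahsg, which were higher, and Ttr, which was lower.

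Of 21 genes of the cytokine signal, 20 were measured. Myd88, the adaptor of interleukin-1 and Toll-like receptors, rose by 0.23 ± 0.0463 in cHF+R (adjusted p = 0.00315) and by 0.19 ± 0.043 in cHF+PC+R (adjusted p = 0.00588). Jak1, a kinase of the interleukin-6 receptor, rose by 0.30 ± 0.0865 in cHF+PC+R (adjusted p = 0.0266), a call lost without any 1 of 4 arrays (cHF replicates 3, 5 and 7 and cHF+PC+R replicate 7). Thus 1 of the 20 passed in cHF+R against cHF, where 2.98% of all probes did. In cHF+PC+R against cHF, 2 of the 20 passed, where 9.02% of all probes did. In cHF+PC the count was 0 by limma, with Jak1 at 0.29 ± 0.0865 (adjusted p = 0.0525), and in cHF+PC+R against cHF+R it was 0, with Nfkbia at 0.21 ± 0.0889 (adjusted p = 0.154). The smallest p in cHF+PC+R against cHF+PC and in the interaction were those of Myd88 (0.098 ± 0.0416 and -0.13 ± 0.0622, adjusted p = 0.518 and 0.717). Of the 120 tests of this list, 15 had an unadjusted p under 0.05, against the same 6.65% to 24.0% of all probes. Socs3, a target of STAT3, was 0.16 ± 0.315 higher in cHF+R than in cHF (adjusted p = 0.872) and 0.15 ± 0.293 in cHF+PC (adjusted p = 0.849). In cHF+PC+R it was 0.53 ± 0.293 higher than in cHF (adjusted p = 0.266). Against cHF+R and cHF+PC the change in cHF+PC+R was 0.38 ± 0.306 and 0.39 ± 0.283 (adjusted p = 0.509 and 0.753). Of 4 genes that clear the complexes of these proteins, Lrp1, the receptor for haemopexin with haem, rose by 0.33 ± 0.0979 in cHF+PC+R against cHF (adjusted p = 0.0312), a call lost without any 1 of 7 arrays, and by 0.34 ± 0.102 against cHF+R (adjusted p = 0.0418), lost without any 1 of 12. These were 2 of the 24 tests of that list, and 9.02% and 6.69% of all probes passed in the same comparisons. Cd163, the receptor for haptoglobin with haemoglobin, had the smallest p in cHF+R (-0.16 ± 0.0472, adjusted p = 0.0693), in cHF+PC (-0.11 ± 0.0439, adjusted p = 0.162) and in the interaction (0.19 ± 0.0635, adjusted p = 0.593), and Hmox1, which breaks down haem, in cHF+PC+R against cHF+PC (0.20 ± 0.147, adjusted p = 0.755).

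Markers of other cells that make these proteins were read in the same livers. None of the 6 measured neutrophil markers (12 listed), 11 Kupffer cell and macrophage markers and 7 lymphocyte markers (8 listed) passed the threshold of the limma fit in a comparison. Their unadjusted p was under 0.05 in 2 of 36, 7 of 66 and 2 of 42 tests, again against 6.65% to 24.0% of all probes by comparison. The summed level of the neutrophil markers, as a mean log2 ratio, ran from -0.24 to 0.34 in cHF+R and from -0.09 to 0.05 in cHF, and that of the macrophage markers from -0.16 to 0.70 and from -0.37 to 0.15. By liver in cHF+R, the neutrophil mean was 0.092, 0.15 and 0.34 in replicates 1, 2 and 6, where Saa1 was high, and -0.015, -0.24 and -0.013 in replicates 3, 4 and 5. S100a9, a calcium-binding protein abundant in neutrophils, was 0.37, 0.33 and 0.63 in the first 3 and -0.19, -0.98 and 0.0099 in the others. The 3 livers with high Saa1 thus had the higher neutrophil mean and S100a9, 1 of the 6 measured markers, without overlap. That split was made by Saa1 itself within 1 group, and it was not tested. Over all 29 livers, with group means removed, Saa1 had r = 0.596 with the neutrophil mean. With the macrophage and lymphocyte means r was 0.348 and 0.451. Over the members, r with the neutrophil mean ran from -0.173 for Crp to 0.596 for Saa1, and it was 0.255 for Lcn2. Saa3 had r = 0.575 with the neutrophil mean, 0.630 with the macrophage mean and 0.722 with the lymphocyte mean. The macrophage mean was -0.16, -0.08 and 0.70 in replicates 1, 2 and 6 and 0.093, -0.14 and 0.23 in replicates 3, 4 and 5, and these overlapped. Of 6 adipocyte markers, 3 were measured. Adipoq, Plin1 and Lep were well above background on at most 2 arrays each. Cfd, adipsin, and Retn, resistin, rose in cHF+R against cHF, where 2.98% of all probes passed (Retn by 0.66 ± 0.184, adjusted p = 0.0466, lost without any 1 of 20 arrays). Cfd fell by 3.01 ± 0.834 in cHF+PC+R against cHF+R (adjusted p = 0.0274, lost without any 1 of 6 arrays), where 6.69% of all probes passed. The mean of the 3 ran from -3.09 to -1.69 in cHF and from -2.04 to 2.26 in cHF+R. In cHF+R, Cfd stood at 2.95, 0.70, 2.00, -0.011, 1.51 and -1.26 in replicates 1 to 6, while Saa1 was high in replicates 1, 2 and 6. The part of any of these cells in the values of the acute phase transcripts was not tested. Among the 10 measured hepatocyte markers, 2 rose in cHF+PC+R against cHF (9.02% of all probes passed) and 1 in cHF+PC against cHF (3.83%). Of the 60 tests of these markers 8 passed, and the rest were rises in cHF+PC+R against cHF+R (6.69% of all probes).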

How the data were processed

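RNA of each liver (1000 ng in total, per the labels' protocols) was divided and labelled with Cy5 and Cy3. The Cy3 products of all samples were pooled as the reference for each Cy5 product, and no dyes were swapped. The authors left out 1 cHF and 1 cHF+R array. Per the file headers, the files hold linear intensity per spot and local background from Agilent Feature Extraction (10.5.1.1, per the submitters' processing notes). A further deposited file holds log2 values of 25806 probes (column medians of 9.03, r with each array's own log2 Cy5 intensity from 0.99 to 0.999) and served as an alternative. The sources used here do not say how it was normalized.

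Intensities were background-corrected (normexp, offset 50) and loess-normalized within arrays with limma 3.58.1 in R 4.3.3 with data.table (version 1.17.8), with control and outlier spots left out and spots of a probe averaged. Probes entered the fit with 6 or more arrays well above background in Cy5 and 20 or more with a value. Means of 4 groups were fitted to all 29 arrays (lmFit, eBayes), two-sided, with Benjamini-Hochberg adjustment over 23981 probes and a threshold of 0.05. Errors are standard errors. The fit was checked on simulated data. A liver is a replicate, as the labels number separate mice. Replicate numbers shared between groups do not pair the samples: deviations of 40 same-numbered pairs had a median correlation of 0.022 (lowest -0.348). Names came from RefSeq annotation (26412 probes by accession, 3854 by symbol, 735 by synonym) or the file (8428). The members and lists were chosen with earlier results of these data known. All members were named. Of the lists of proteins, cytokine signal and clearance, up to 4 called genes per comparison were named, or the gene of smallest p where none was called (Socs3 was chosen after its values were seen). Cell type markers, where reported, were given mainly as counts and means. The result of 1 marker gene is not reported here. Alternatives are in the closing section.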

Additional observations from a re-analysis of the deposited data

Results flagged for a closer look

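Single livers of a member were compared with the rest of their group by Dixon's rule at the 95% level. Of 40 groups of values, 4 held such a liver, where chance gives about 1 in 20. Orm3 stood at 0.85 in cHF+R replicate 1 and at 0.57 in cHF+PC+R replicate 5, each the highest of its group. Hpx stood at 0.90 in cHF+PC+R replicate 2, above the rest. Lcn2 stood at -0.37 in cHF+PC+R replicate 3, below the rest, and the same liver was the lowest of all 29 for Saa1 (-1.12), Saa2 (-1.36) and Hp (-0.25).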

How the results depend on the processing

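The 10 members were refitted under 16 alternatives and with each of 29 arrays left out, which gave 2690 values, of which 12 passed the threshold, 7 of them with an array left out, and 92 had the opposite sign (main change of 0.33 at most). The count of members called was 0 in every comparison. It became 1 in cHF+PC+R against cHF+R with no background subtraction and with the slide as a fixed block, and 1 with array weights and 2 with only the groups compared in cHF+PC+R against cHF. With 1 array left out it ran from 0 to 3 in cHF+PC+R against cHF+R, from 0 to 2 in cHF+PC+R against cHF and from 0 to 1 in cHF+PC against cHF. The replicate block left it at 0 and changed no member's call. The interaction was not run with only the groups compared, since it needs all 4. Alternatives for the other lists were added after the data were seen, and in them no called gene changed sign, while all calls were lost with scaling between arrays, and all but those of Apcs and of Cfd in cHF+R when median centring replaced loess.

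Those settings also move the counts over all probes: cHF+PC against cHF from 918 to between 12 (median centring) and 1452 (no background subtraction), cHF+R against cHF from 714 to between 87 and 929, cHF+PC+R against cHF from 2164 to between 109 and 2664, cHF+PC+R against cHF+R from 1605 to between 60 and 1987, and cHF+PC+R against cHF+PC from 27 to between 2 and 150. With 1 array left out, the lowest were 515 (without cHF+PC replicate 4), 521, 1564, 887 (without cHF+R replicate 1) and 7 (without cHF+PC+R replicate 6). Median centring moved the median of all probes in cHF+R against cHF to 0.14, and the share of calls that were higher from 66.0% to 93.8% there (scaling 87.4%, deposited values 39.4%) and from 46.5% to 13.3% in cHF+PC+R against cHF+R (31.8% and 57.9%).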
